A study of Homo sapiens with 9 samples.

Results

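Aminoacyl-tRNA synthetases are the enzymes that load each amino acid onto its tRNA. Their genes were found by name alone: a letter for the amino acid followed by ARS, with or without a final 1 or 2, together with FARSA, FARSB and EPRS. The rule found 37 of the 60623 genes listed for each library. Of these, 20 encode cytosolic enzymes and 17, whose names end in 2, encode mitochondrial enzymes. All 20 cytosolic and 15 of the 17 mitochondrial genes had a mean FPKM of at least 1 in every pair of libraries compared, and the medians and counts of the classes cover these 35 genes. FPKM scales the fragments on a gene by the length of its exons and by the total of the library. Gene names are the older ones of the files, so that AARS, for example, is the gene now called AARS1.

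RNA was sequenced from 3 stable lines of U937, a human leukemia line of the monocytic lineage, each given doxycycline at 5 μg/ml for 0, 12 or 48 h to induce its construct. The AE line (clone #4) carried HA-tagged AML1-ETO and the EG line (clone #14) carried HA-tagged ETO2-GLIS2, both leukemia fusion proteins, in a retroviral vector with puromycin resistance. The control line carried the empty vector and received the same drug. The 0 h libraries were from cells without drug, each fusion line was a single-cell clone, and no untreated cells at 12 or 48 h were analysed here, so that drug and time in culture cannot be told apart. Each of the 9 conditions had 1 library. No difference given here therefore has a replicate check, no p-value was computed, and "past 2-fold" describes these libraries and not the conditions.

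A synthetase recognises its amino acid and the matching tRNAs. The cytosolic enzymes serve translation of nuclear genes, and a separate set of nuclear-encoded enzymes is imported into mitochondria to serve the few proteins of the mitochondrial genome. A number of cytosolic synthetases are known targets of ATF4, the transcription factor that is translated when amino acids are short or proteins misfold and that binds amino acid response elements together with C/EBP family partners. Several cytosolic synthetases are held in a multisynthetase complex, GARS and KARS also supply the mitochondrial enzyme, and WARS is known as an interferon-induced gene.

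The libraries held between 15136398 and 18443640 reads on genes, as recovered from the steps of the FPKM values. RUNX1T1, the gene that encodes ETO, had 0.512, 22.2 and 28.7 FPKM at 0, 12 and 48 h in the AE line and at most 0.024 in the other lines. GLIS2 had 2.39, 6.79 and 8.85 FPKM in the EG line and up to 5.6 in the others. Of 10 myeloid marker genes, 6 were at 1 FPKM or more in every library, CD14 and MPO were under 1 in every library, and the summed level ranged from 166 FPKM in the AE line at 48 h to 2200. Of 10 markers of T, B, erythroid, epithelial and fibroblast cells, 9 were under 1 FPKM in every library and 6 of these were listed at 0.

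The median change of the cytosolic genes was above that of all genes at 12 and 48 h in all 3 lines, the control line included, and the median change of the mitochondrial genes was below it. In the EG line at 12 h the mitochondrial and all-gene medians were nearly equal, at 0.105 and 0.109. At 48 h the 20 cytosolic genes had median log2 fold changes of 0.25, 0.28 and 0.41 in the control, AE and EG lines. The medians of the 15 mitochondrial genes were -0.23, -0.33 and -0.30 in the same order, and those of all genes past the filter were 0.16, 0.22 and 0.16. By their medians, cytosolic genes were higher and mitochondrial genes lower than at 0 h. In RNA from whole cultures, a change in every cell and a change in the share of some cells cannot be told apart. The difference between the class medians was 0.48, 0.62 and 0.71 in the control, AE and EG lines. Single members were spread more widely than this, with cytosolic genes between -0.56 and 1.41 in the control line at 48 h.

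At 12 h, in comparisons that share the 0 h library of each line with those at 48 h, the classes were already apart. In the control, AE and EG lines the cytosolic median was 0.40, 0.42 and 0.33, and the mitochondrial median was -0.11, 0.03 and 0.105, with 0.14, 0.18 and 0.11 for all genes. The differences of 0.51, 0.39 and 0.23 show the classes closest in the EG line at this time. From 12 to 48 h the mitochondrial median went down in each line.

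**Figure D1:**
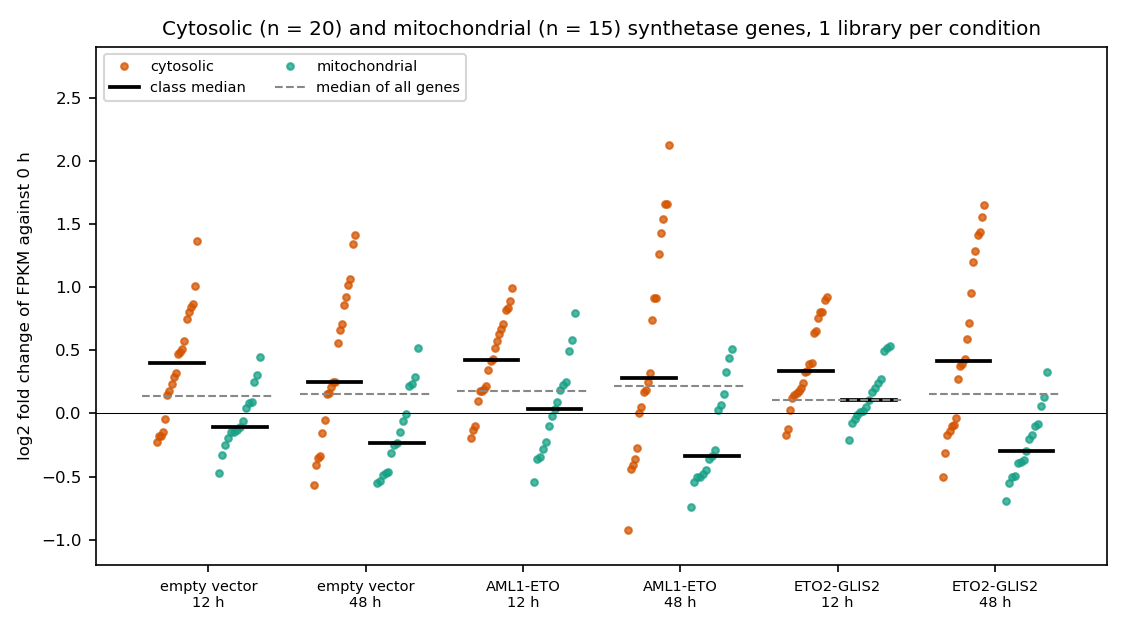
Each point is the log2 fold change of FPKM against 0 h of the same line (y axis) for 1 of 20 cytosolic or 15 mitochondrial synthetase genes in 1 of 6 comparisons (x axis: the empty vector or control line, the AML1-ETO or AE line, and the ETO2-GLIS2 or EG line at each time), with solid bars for class medians and dashed lines for the median of all genes past the filter. The cytosolic points reach 2.12 in the AE line at 48 h, whereas no mitochondrial point is past 1 in either direction.

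Single genes show that the cytosolic class was split. At 12 h, 2 of 20 cytosolic genes (CARS and WARS) were more than 2-fold higher in the control line, beside 5.64% of all genes tested. None was in the AE line (6.57% of all genes) or in the EG line (3.03%). At 48 h the count was 4 in the control line (CARS, GARS, SARS and WARS) beside 8.0% of all genes. It was 6 in the AE line beside 17.3%, and 6 in the EG line beside 10.8%. CARS, GARS, SARS, WARS and MARS were among the 6 in both fusion lines, joined by YARS in the AE line and by TARS in the EG line. With the change in the control line subtracted, 1 gene was past 2-fold at 48 h in the AE line and 0 in the EG line. That gene was AARS, which was lower, at -1.17, so that no higher gene stayed past 2-fold. Rescaling each library by its median ratio left 2 in the control line.

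No cytosolic gene was more than 2-fold lower, and no mitochondrial gene was past 2-fold in either direction, in any of the 6 comparisons. Of all genes, 2.99%, 11.3% and 2.54% were more than 2-fold lower at 48 h in the control, AE and EG lines, and 1.88%, 2.39% and 1.46% were at 12 h. At 1.5-fold, 8, 9 and 9 cytosolic genes were higher at 48 h in the control, AE and EG lines, beside 20.4%, 31.7% and 22.4% of all genes, and 6, 7 and 7 were at 12 h, beside 14.4%, 18.0% and 8.92%. AARS was the only cytosolic gene more than 1.5-fold lower, in the AE line at 48 h, beside 18.5% of all genes. The mitochondrial genes past 1.5-fold were CARS2, higher in the AE line at 12 h, NARS2, lower in the AE line at 48 h (18.5% of all genes), and IARS2, lower in the EG line at 48 h (6.24%). In the comparisons where no member was more than 1.5-fold lower, 3.77% and 7.4% of all genes were at 12 and 48 h in the control line, and 6.17% and 3.39% were at 12 h in the AE and EG lines.

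The direction of change was counted as well. Of the 20 cytosolic genes, 14, 15 and 13 were higher at 48 h in the control, AE and EG lines, and of the 15 mitochondrial genes 4, 6 and 3 were, beside 63.2%, 60.9% and 63.8% of all genes. The cytosolic counts thus lay near the share of all genes and the mitochondrial counts below it. At 12 h it was 15, 17 and 18 of 20 and 6, 8 and 11 of 15, beside 68.0%, 66.8% and 67.4% of all genes. FPKM are shares of a library, and their all-gene median was above 0 in each comparison. Rescaling each library by its median ratio brought the median of all genes to between -0.01 and 0.05. The mitochondrial genes that were lower then numbered 11, 12 and 14 of 15 at 48 h, in place of 11, 9 and 12, and 12, 9 and 8 at 12 h, in place of 9, 7 and 4. The cytosolic genes that were higher numbered 14, 13 and 13 of 20 at 48 h and 14, 16 and 17 at 12 h after rescaling. The share of the FPKM sum on genes of the mitochondrial genome was 23.5%, 20.9% and 22.8% at 0 h and 15.5%, 8.82% and 12.1% at 48 h in the control, AE and EG lines, and its part in the levels of the synthetase genes was not tested.

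As a sum over genes, the cytosolic class measured 841.2, 1109.4 and 1100.2 FPKM at 0, 12 and 48 h in the control line. The AE line had 694.8, 861.4 and 1004.4 FPKM and the EG line 734.5, 915.1 and 1082.0. The control line had reached its level at 12 h, and the fusion lines were still higher at 48 h than at 12 h. The mitochondrial sums were lowest at 48 h in each line, at 185.0, 177.4 and 164.2 FPKM. The ratio of the sums, cytosolic over mitochondrial, was 3.97, 3.26 and 3.64 at 0 h and 5.95, 5.66 and 6.59 at 48 h in the control, AE and EG lines.

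Promoter sequence was compared between the classes, since ATF4 and interferon act through known DNA elements. The RefSeq promoter table of GRCh38.p14, which holds 250 bases before to 50 bases after each annotated start, matched 30 of the 37 genes. AARS2, DARS, LARS, VARS, VARS2 and YARS were among those with no entry. The core of the amino acid response element, TGATGNAA or TTNCATCA on the other strand, was found in 7 of 16 cytosolic genes matched and in 1 of 14 mitochondrial genes, beside 4.46% of 27305 genes. The 8 matches are printed here because this element, of the 4 searched, differed most in share between the classes. They are given on the strand of the gene, with the match in capitals and 10 bases on either side.
AARS: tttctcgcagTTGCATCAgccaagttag
CARS: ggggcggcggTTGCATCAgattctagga
GARS: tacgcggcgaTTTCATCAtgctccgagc
IARS: tttcagcgcgTTGCATCAcctccgtgcg
MARS: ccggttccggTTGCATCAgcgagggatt
NARS: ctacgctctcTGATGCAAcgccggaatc
TARS: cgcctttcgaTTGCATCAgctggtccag
YARS2: tccacactgcTGATGGAAaaattaagtt

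The printed stretches lie at chr16:70289676-70289703 on the minus strand for AARS, chr11:3057408-3057435 minus for CARS, chr7:30594835-30594862 plus for GARS and chr9:92293693-92293720 minus for IARS. Those of the other genes lie at chr12:57488054-57488081 plus for MARS, chr18:57621805-57621832 minus for NARS, chr5:33440957-33440984 plus for TARS and chr12:32756077-32756104 minus for YARS2. Counted from an annotated start, the first base of the match was at -2 in CARS, -4 in MARS, -13 in IARS, -33 in GARS, +3 in TARS and +15 in NARS. In AARS and YARS2 it was farther upstream, at -187 and -197. A match describes the letters of the window and not a bound site.

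The 7 cytosolic genes with these letters had median log2 fold changes of 0.86, 0.91 and 1.20 at 48 h in the control, AE and EG lines. For the 9 cytosolic genes matched that lack them the medians were -0.06, 0.05 and -0.09. Of these 7 genes, 5 were more than 1.5-fold higher in the control line and 6 in each fusion line. Of the 9 without, 2 were in each line. Of all genes past the filter, the share was 20.9% with and 16.3% without the letters in the control line, 34.5% and 27.0% in the AE line, and 27.1% and 16.7% in the EG line. Over all genes past the filter, the medians with and without the letters were closer, at 0.17 and 0.13, 0.29 and 0.17, and 0.23 and 0.12. SARS and WARS, which have no match in their windows, were the 2 of the 9.

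WARS, which encodes tryptophanyl-tRNA synthetase (ENSG00000140105, chr14:100333790-100376327), was the cytosolic gene with the largest log2 fold change in the AE line. It had 30.6, 78.9 and 81.6 FPKM at 0, 12 and 48 h in the control line, 24.5, 48.7 and 106.8 in the AE line, and 28.4, 49.4 and 83.6 in the EG line. All 3 lines began within a narrow range and the AE line ended highest. The log2 fold change at 48 h was 1.41 (95% counting interval 1.36 to 1.47), 2.12 (2.06 to 2.18) and 1.56 (1.5 to 1.61) in the control, AE and EG lines. These intervals, exact Clopper-Pearson intervals of the ratio of reads, cover counting error only and not variation between cultures.

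The window of an alternative WARS start held the only match among the cytosolic genes to the interferon-stimulated response element core (TTTC, any 2 bases, TTTC, or GAAA, any 2 bases, GAAA on the other strand), found in 4.38% of all genes. It also held the gamma-activated sequence TTCNNNGAA, found in 9.38% of all genes and in 3 cytosolic genes. Both are printed here for their bearing on the interferon-induced gene, with the match in capitals.
WARS interferon-stimulated response element core: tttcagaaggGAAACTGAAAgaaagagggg
WARS gamma-activated sequence: gctcaagtgtTTCTGAGAAtctgggtgat

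These lie on the minus strand at chr14:100375383-100375412, with the match at -55 from that start, and at chr14:100375471-100375499, with the match at -142, and do not overlap. CARS and TARS were the other cytosolic genes with the gamma-activated sequence, and PARS2 and WARS2 the mitochondrial genes. EARS2 was the 1 mitochondrial gene with the interferon-stimulated element. The E-box CACGTG, found in 8.77% of all genes, was in IARS, CARS2, EARS2 and MARS2.

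Genes known to be induced by interferon were set beside WARS. Of 11 such genes, 6 passed the filter at 48 h in the AE line, with a median log2 fold change of 6.54. GBP1, GBP2 and IDO1 were under 1 FPKM in every library, and MX1 and IRF1 also did not pass there. The median covers none of these. OAS1, IFIT1 and IFIT2 passed there only through the 48 h library, so that their change past 2-fold was fixed by the filter. There ISG15, an interferon-induced ubiquitin-like protein, rose from 13.6 to 856 FPKM, and IFIT3, an interferon-induced antiviral protein, from 2.0 to 163. The median was 0.89 over 4 genes in the control line and 1.21 over 6 genes in the EG line, and as the genes differ between lines these medians were not ranked. IFIT2 in the EG line also passed only through the 48 h library, so that its change past 2-fold was fixed. IRF1 in the control line passed only through the treated library at 12 and at 48 h. At 12 h the medians were 0.41, 0.71 and 0.21 over 4, 3 and 5 genes in the control, AE and EG lines, while WARS was at 1.36, 0.99 and 0.80. WARS was thus already higher at 12 h in all 3 lines, and by most in the control line. Genes on the other strand cover 10.6% of the exon bases of WARS. The part of interferon-induced transcription in the WARS level was not tested.

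GARS, glycyl-tRNA synthetase (ENSG00000106105, chr7:30594735-30634033), which serves both compartments, had 49.1, 89.4 and 99.5 FPKM in the control line at 0, 12 and 48 h. In the AE line it had 33.2, 59.3 and 105.1 FPKM, and in the EG line 45.6, 77.0 and 121.4. Every treated library was above every uninduced one, as also in CARS, MARS, NARS, SARS, TARS, WARS and YARS. The share of all genes with this order was not counted. The log2 fold change of GARS at 48 h was 1.02, 1.66 and 1.41. KARS, lysyl-tRNA synthetase (ENSG00000065427), the other enzyme that serves both compartments, had 42.7, 41.5 and 38.4 FPKM in the control line, 37.4, 43.5 and 38.7 in the AE line, and 39.5, 43.6 and 36.8 in the EG line, with no order of times shared by the lines. The dual genes thus differed, with KARS at -0.15, 0.05 and -0.10 at 48 h.

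CARS, cysteinyl-tRNA synthetase (ENSG00000110619), was low but followed the same order of times. It had 3.86, 7.79 and 9.77 FPKM in the control line, 2.37, 4.42 and 7.52 in the AE line, and 3.2, 5.96 and 10.1 in the EG line. Treated and uninduced libraries did not overlap, and the share of all genes for which this holds was not counted. The log2 fold change at 48 h was 1.34 (1.21 to 1.48), 1.66 (1.5 to 1.83) and 1.65 (1.52 to 1.79).

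SARS, seryl-tRNA synthetase (ENSG00000031698), had 23.7, 42.4 and 49.5 FPKM in the control line, 16.3, 28.7 and 47.2 in the AE line, and 20.2, 31.8 and 49.2 in the EG line. The 3 lines differed at 0 h and met at 48 h, where their range was 47.2 to 49.5. MARS, methionyl-tRNA synthetase (ENSG00000166986), showed the same, with 28.8, 48.2 and 52.3 FPKM in the control line, 19.3, 30.7 and 51.9 in the AE line, and 19.0, 33.0 and 51.4 in the EG line. The MARS gene lies tail to tail with DDIT3, which encodes the stress factor CHOP, and 12.4% of its exon bases lie under ARHGAP9 and DDIT3 on the other strand. The library kit does not mark strand, so that reads on these bases cannot be told apart. DDIT3 had 0.8, 1.2 and 2.65 FPKM at 0 h and 8.65, 7.89 and 8.0 at 48 h in the control, AE and EG lines.

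YARS, tyrosyl-tRNA synthetase (ENSG00000134684), had 49.0, 72.9 and 77.3 FPKM in the control line, 33.5, 54.6 and 80.3 in the AE line, and 36.9, 57.2 and 71.5 in the EG line. TARS, threonyl-tRNA synthetase (ENSG00000113407), had 25.5, 44.5 and 48.5 FPKM in the control line, 19.0, 29.5 and 31.8 in the AE line, and 19.5, 36.9 and 44.7 in the EG line. For TARS the AE line was lowest at 0, 12 and 48 h. NARS, asparaginyl-tRNA synthetase, ranged from 50.5 to 95.1 FPKM and was more than 1.5-fold higher in each line at 48 h, at log2 fold changes of 0.71, 0.91 and 0.59.

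**Figure D2:**
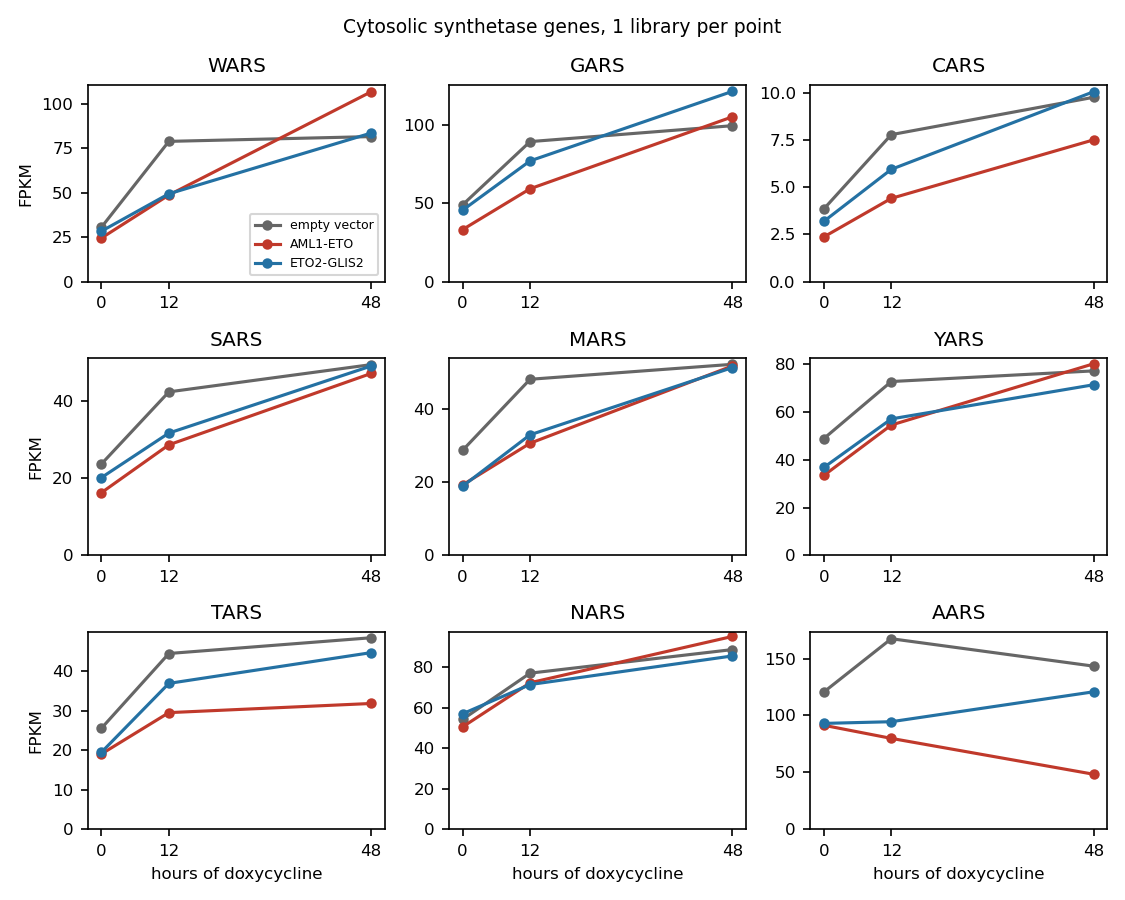
FPKM (y axis, from 0) of 9 cytosolic synthetase genes at 0, 12 and 48 h of doxycycline (x axis) in the empty vector (control), AML1-ETO (AE) and ETO2-GLIS2 (EG) lines, 1 library per point. In 8 of the panels each line is higher at 48 h than at 0 h, which follows from their choice as genes more than 1.5-fold higher in every line at 48 h. In the panel of AARS the AE line falls from 91.3 to 48.3 FPKM.

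CARS, GARS, MARS, NARS, SARS, TARS, WARS and YARS, the 8 genes past 1.5-fold in all 3 lines at 48 h, differed in their time course between the lines. They were picked by their change from 0 h to 48 h, so that the 0 h and the 48 h values of every line entered the choice. A low level at 0 h favours being picked. The following therefore describes these genes and tests nothing. Their median log2 fold change was 0.82, 0.76 and 0.78 at 12 h in the control, AE and EG lines, and 0.97, 1.48 and 1.35 at 48 h. The median step from 12 to 48 h was 0.14 in the control line, with a range of 0.05 to 0.33, 0.74 in the AE line, with a range of 0.11 to 1.13, and 0.64 in the EG line, with a range of 0.26 to 0.76. The ranges overlapped. The fusion lines had begun lower. Without drug, the median log2 difference of the 8 genes from the control line was -0.55 for AE cells, with 8 of 8 lower, and -0.25 for EG cells, with 7 lower, against 0.01 and -0.02 over all genes and 0.04 and -0.07 over the mitochondrial synthetases. The 12 other cytosolic genes were at -0.16, with 9 of 12 lower, in AE cells and at -0.21, with 8 lower, in EG cells. Of all genes past the filter, 5534 of 11319 were lower than in the control line in AE cells and 5744 of 11176 in EG cells. The median ratio of the highest to the lowest line was 1.46 at 0 h, 1.51 at 12 h and 1.17 at 48 h for the 8 genes, and 1.28, 1.28 and 1.32 for the mitochondrial genes.

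The larger log2 fold changes of the fusion lines thus stood beside lower uninduced levels. Less the change in the control line, the median over the 20 cytosolic genes at 48 h was 0.21 in the AE line and 0.17 in the EG line, and over the 15 mitochondrial genes 0.04 and -0.05. At 12 h it was 0.02 and 0.04 for the cytosolic and 0.15 and 0.12 for the mitochondrial genes. WARS in the AE line was the gene furthest above the control line at 48 h, by 0.71. GARS followed by 0.64 and YARS by 0.60 in the same line.

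AARS, alanyl-tRNA synthetase (ENSG00000090861, chr16:70252298-70289506), differed most between the lines at 48 h in log2 fold change. It had 120.6, 167.5 and 143.4 FPKM at 0, 12 and 48 h in the control line, 91.3, 79.8 and 48.3 in the AE line, and 93.0, 94.5 and 120.8 in the EG line. The AE line went down at each time while the other lines ended above their start. Its log2 fold change at 48 h was 0.25 (0.21 to 0.29), -0.92 (-0.98 to -0.86) and 0.38 (0.33 to 0.42). The difference between the AE and control lines at 48 h was -1.17, the largest in size for any member past the filter. AARS is also among the 7 genes with the letters of the amino acid response element.

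Genes of the multisynthetase complex were closer to the median of all genes than the others. The 8 genes EPRS, IARS, LARS, MARS, QARS, RARS, KARS and DARS had medians of 0.19, 0.21 and 0.12 at 48 h in the control, AE and EG lines, and the 12 outside it 0.68, 0.83 and 0.77. At 12 h the medians were 0.21, 0.28 and 0.18 in the complex and 0.54, 0.60 and 0.51 outside it. Within the complex, MARS, IARS, EPRS and LARS were higher in all 3 lines at 48 h. IARS, isoleucyl-tRNA synthetase, was at 0.56, 0.91 and 0.72 at 48 h. RARS, arginyl-tRNA synthetase, was at -0.56, -0.27 and -0.50, and QARS, glutaminyl-tRNA synthetase, at -0.41, 0.00 and -0.14. By structural class, the 10 class I genes had medians of 0.40, 0.62 and 0.57 at 48 h and the 10 class II genes 0.21, 0.18 and 0.39. EPRS, whose enzyme loads more than 1 amino acid, was counted in class I alone.

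Of the other cytosolic genes, EPRS, which loads both glutamate and proline, LARS for leucine, DARS for aspartate and HARS for histidine stayed between -0.06 and 0.43 at 12 and 48 h. VARS for valine was at -0.35, -0.44 and -0.17 at 48 h. Of the subunits of phenylalanyl-tRNA synthetase, FARSA was at -0.34, -0.41 and -0.31 and FARSB at 0.15, -0.36 and -0.09. In all, 11 cytosolic genes had a counting interval above 0 in each of the 6 comparisons: CARS, EPRS, GARS, IARS, LARS, MARS, NARS, SARS, TARS, WARS and YARS. Of the 10541 genes that passed the filter in all 6 comparisons, 10.9% had such an interval above 0 in each.

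Among the mitochondrial genes, only CARS2 and HARS2 had a counting interval above 0 in all 6 comparisons, and only IARS2 had one below 0 in all 6, beside 10.9% and 3.18% of all genes. IARS2, mitochondrial isoleucyl-tRNA synthetase (ENSG00000067704, chr1:220094132-220148041), was the most abundant of them, with 52.9, 44.5 and 42.5 FPKM in the control line, 51.3, 47.9 and 36.7 in the AE line, and 65.7, 56.9 and 40.6 in the EG line. Each line went down at both times. Its log2 fold change at 48 h was -0.32, -0.48 and -0.69.

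NARS2, for asparagine, had 7.15, 6.87 and 8.43 FPKM in the control line, 7.44, 7.93 and 4.45 in the AE line, and 6.81, 7.32 and 5.27 in the EG line. It was lower at 48 h in the fusion lines and not in the control line, with log2 fold changes of 0.24 (0.03 to 0.44), -0.74 (-0.99 to -0.5) and -0.37 (-0.60 to -0.14). FARS2, for phenylalanine, was scarce, with 2.9, 2.61 and 2.10 FPKM in the control line, 2.87, 1.97 and 2.23 in the AE line, and 2.13, 2.52 and 1.45 in the EG line. It was under its 0 h level at 48 h in all 3 lines. YARS2, for tyrosine, had 4.58, 4.25 and 5.33 FPKM in the control line, 5.14, 7.24 and 7.32 in the AE line, and 6.14, 8.88 and 5.78 in the EG line, higher at 48 h than at 0 h in the control and AE lines and lower in the EG line.

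CARS2, for cysteine, was the mitochondrial gene past the filter with the largest log2 fold change, 0.80 at 12 h in the AE line, where it had 14.3 FPKM at 0 h and 24.8 at 12 h. It was at 0.52, 0.44 and 0.13 at 48 h. HARS2, for histidine, was at 0.29, 0.33 and 0.32. EARS2, for glutamate, and TARS2, for threonine, were lower than at 0 h in all 6 comparisons, as was IARS2, beside 6.7% of all genes. AARS2, for alanine, was at -0.49, -0.50 and -0.38 at 48 h, and LARS2, for leucine, at -0.55, -0.33 and -0.50. PARS2, RARS2, WARS2 and MARS2, for proline, arginine, tryptophan and methionine, each had both signs among the 3 lines at 48 h.

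SARS2 and VARS2, the mitochondrial seryl- and valyl-tRNA synthetases, did not pass the filter. SARS2 was at most 0.55 and VARS2 at most 0.26 FPKM, and neither had more than 27 reads in a library. In an annotation on GRCh37, 48.2% of SARS2 exon bases and 63.0% of VARS2 exon bases are shared with a gene on the same strand, AC011455.2 and AL669830.1. For the other 35 genes this share was at most 4.1%. The part of the shared bases in the low counts was not tested.

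Each mitochondrial gene past the filter was set against the cytosolic gene or genes for its amino acid, with EPRS standing for both glutamate and proline and the mean of FARSA and FARSB for phenylalanine. The cytosolic gene had the larger log2 fold change for 13, 11 and 14 of 15 amino acids at 48 h in the control, AE and EG lines, and for 14, 14 and 13 at 12 h. The median difference was 0.74, 0.73 and 0.93 at 48 h and 0.57, 0.42 and 0.22 at 12 h. The difference was past 2-fold for 3, 6 and 6 amino acids at 48 h. The widest difference was that of tryptophan, at 1.47, 2.06 and 1.95. Arginine was the reverse in each line at 48 h, with RARS below RARS2 by 0.56, 0.43 and 0.33, and alanine was the reverse in the AE line alone, by 0.42. Histidine was the reverse in the control and AE lines, at differences of -0.35 and -0.16, and phenylalanine in the AE line, at -0.02.

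**Figure D3:**
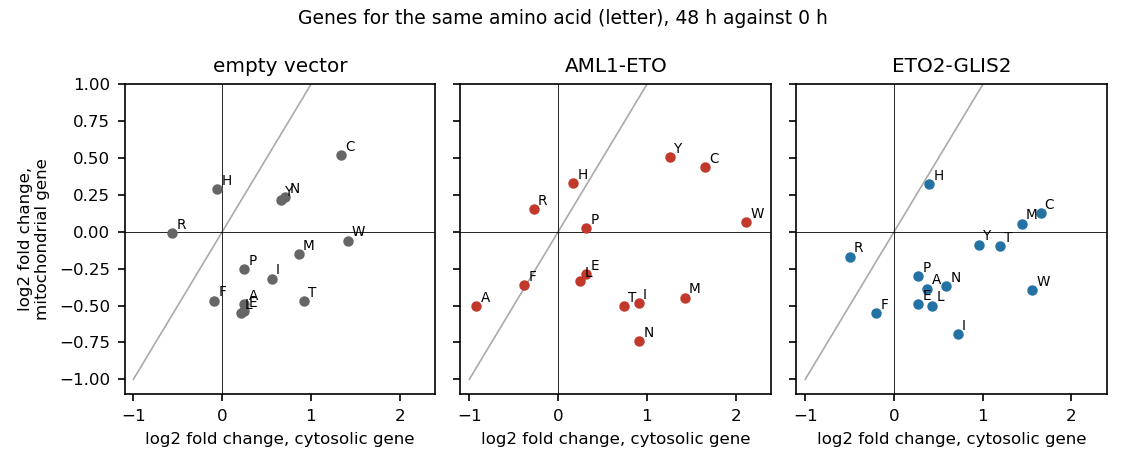
For 14 of the 15 amino acids, each given by its letter, the log2 fold change of FPKM at 48 h against 0 h of the cytosolic gene (x axis) and the mitochondrial gene (y axis) in the empty vector (control), AML1-ETO (AE) and ETO2-GLIS2 (EG) lines, with the diagonal where both are equal. Of the 14 points, 12, 10 and 13 lie to the right of the diagonal, and arginine (R) lies to its left in each panel.

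Genes that work with the synthetases were described by lists of their own. Of 10 genes tied to cytosolic aminoacylation, 6, 7 and 9 passed the filter at 48 h in the control, AE and EG lines. The medians were 0.25, 0.23 and 0.23 at 48 h and 0.30, 0.39 and -0.02 at 12 h. At 48 h, 1 gene was more than 2-fold higher, PSTK, the kinase of the selenocysteine pathway, in the AE line, beside 17.3% of all genes. PSTK had 0.70 FPKM at 0 h and 1.58 at 48 h there, so that it passed the filter only through the 48 h library. XPOT, the exporter of tRNA from the nucleus, had 53.4, 38.6 and 46.9 FPKM at 0 h and 85.7, 45.0 and 83.9 at 48 h in the control, AE and EG lines. The scaffold genes AIMP1 and AIMP2 of the complex stayed between -0.20 and 0.25 at 48 h. The 5 mitochondrial aminoacylation partners, which include the amidotransferase subunits QRSL1, GATB and GATC, had medians of 0.26, 0.12 and -0.03 at 48 h and 0.27, 0.29 and 0.10 at 12 h, with none past 2-fold.

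Of 9 mitochondrial translation factors, 8 passed the filter, with medians of 0.09, 0.23 and 0.09 at 48 h and 0.06, 0.22 and 0.04 at 12 h and none past 2-fold. TUFM, the mitochondrial elongation factor Tu, had 101, 112 and 96.2 FPKM at 0 h and 76.8, 80.0 and 63.2 at 48 h. Of 6 cytosolic elongation factor genes, 5 passed, with medians of 0.10, 0.38 and -0.07 at 48 h and -0.07, 0.49 and -0.13 at 12 h and none past 2-fold. EEF1G is listed at 0 in every library, although every cell uses it, which is why a low value in these files was not read as absence.

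ATF4 and 16 of its known targets outside the synthetases, a list written with earlier results of these data known, were also higher by their median in every line. Of the 17 genes, 16 passed the filter (ASNS did not), and 11, 11 and 14 were more than 2-fold higher at 48 h in the control, AE and EG lines, beside 8.0%, 17.3% and 10.8% of all genes. Their medians were 1.41, 1.93 and 1.505 at 48 h and 0.92, 0.82 and 0.60 at 12 h, when 7, 6 and 1 were more than 2-fold higher, beside 5.64%, 6.57% and 3.03%. These counts include DDIT3 in the control line at both times, with 0.80 FPKM at 0 h. They also include ATF3 in the EG line at 48 h, with 0.83 FPKM at 0 h. Both passed the filter only through the treated library. ATF4 itself had 108.9, 194.0 and 249.4 FPKM in the control line, 86.7, 197.7 and 312.0 in the AE line, and 86.8, 153.5 and 217.2 in the EG line. As with GARS, CARS and the other synthetase genes named with them, every treated library was above every uninduced one. How many of all genes share this order was not counted. PSAT1, an enzyme of serine synthesis, had 60.9, 34.6 and 51.5 FPKM at 0 h and 231, 107 and 253 at 48 h. SESN2, a stress-induced inhibitor of mTORC1 signalling, had 14.4, 8.88 and 9.35 FPKM at 0 h and 47.0, 50.2 and 48.7 at 48 h. SLC7A11, the cystine transporter subunit, was at a log2 fold change of 4.66 in the AE line, against 2.21 and 2.59 in the other lines. CEBPG, a C/EBP partner of ATF4, was at -0.31 in the AE line and at 0.84 and 0.41 in the control and EG lines. Whether ATF4 acts on the synthetase genes in these cells was not tested.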

How the data were processed

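RNA-seq of 9 libraries was analysed. The authors made libraries with the TruSeq kit version 2, mapped reads to hg38 with HISAT2 (2.0.5) and SAMtools (1.7), assigned them to genes with HTSeq (0.9.1) at default parameters, and deposited FPKM. DESeq2 (1.22.2) is also named in the submitters' processing notes, without a role, and the annotation version is not given in the sources used here. Libraries of a line were compared as log2(FPKM + 0.01), which understates changes of very low genes, where the mean FPKM of the pair was 1 or more, with a threshold of 2-fold. Read numbers were recovered from the steps of the FPKM values for 99.9% of 23889 genes above 0 in 3 or more libraries and served for read numbers, library totals and the 95% counting intervals, not for fold changes. On simulated data the recovery was tested with 23405 genes and was exact for 99.7%. Without molecular identifiers, reads may be copies of the same molecule. Synthetases, partner lists, ATF4 and interferon lists and markers were chosen with earlier results of these data known. Values in all 9 libraries are given for members past 2-fold, for the 5 cytosolic and 5 mitochondrial genes with the largest log2 fold change at 48 h in a fusion line, for GARS, KARS and WARS, and, after its values were seen, for AARS. Values of 1 mitochondrial gene of these and of 1 interferon-induced gene are not reported here. Coordinates and promoters come from RefSeq (GRCh38.p14), and exon overlaps from an annotation on GRCh37. Alternatives covered the pseudocount, filter, scaling, fold threshold and reference library. Python (3.11.15), numpy (2.4.6), pandas (2.3.3), scipy (1.17.1) and matplotlib (3.10.9) were used.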

Additional observations from a re-analysis of the deposited data

Results flagged for a closer look

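AARS moved in opposite directions in 2 lines. Its log2 fold change in the AE line was -0.19 at 12 h and -0.92 at 48 h, and in the control line it was 0.47 and 0.25. Each value rests on 1 library against 1 library, and this difference was not tested. The recovered reads of AARS numbered between 3304 and 11405 per library, so that counting error is small beside these differences.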

How the results depend on the processing

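The difference between the class medians stayed above 0 in 48 of 50 alternatives. Rescaling a library moves both medians by nearly the same amount, so that those alternatives could not change the difference. Leaving out GARS and KARS left it as it was. The difference turned to -0.129 in the AE line and -0.084 in the EG line at 12 h with the change in the control line subtracted. The same subtraction left 0.175 and 0.216 at 48 h. Against 0 h of the control line, the AE line gave 0.031 at 12 h and 0.47 at 48 h.

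Of 30 alternatives for counts past 2-fold that were above 0, 19 stayed within 1.5 times. At 1.5-fold, the cytosolic counts in either direction were 6 and 8 in the control line, 7 and 10 in the AE line and 7 at 12 h in the EG line, and the mitochondrial count was 1 in the AE line at both times and 1 in the EG line at 48 h. A pseudocount of 1 FPKM left 1 cytosolic gene in the control line at 12 h, and rescaling left 1 at 12 h and 2 at 48 h. With the control line subtracted, 1 cytosolic gene was past 2-fold at 48 h in the AE line, AARS, which was lower, and 0 in the EG line. With members past 2-fold in the control line left out, an alternative chosen after seeing the data, 2 remained in each. Against 0 h of the control line there were 3 cytosolic genes in the AE line at 48 h, GARS and WARS higher and AARS lower. There was 1 mitochondrial gene in the AE line at 12 h, CARS2, which was higher. There were 2 in the EG line at 48 h, AARS2 and EARS2, both lower. Without the filter 1 mitochondrial gene was past 2-fold in the control line at 12 and at 48 h and in each fusion line at 48 h.

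The labels give no replicate numbers that pair the conditions, so no fit with a replicate block was made, and a fit of time over the 3 lines together was not run. With 1 library per condition, depth limits only the counting error, and variation between cultures and clones is unknown.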
